A study of Mus musculus with 10 samples.

Results

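The potassium channel genes of the Kcn symbols, with the K2P channels (symbols starting Kcnk) left out, were compared in pools of vagal sensory neurons from mice. Rows were taken by symbol alone, without regard to their values, and 83 of the 24421 gene rows matched. These comprised 79 protein-coding genes (voltage-gated, calcium-activated, sodium-activated and inwardly rectifying channels and their accessory subunits) and 4 non-coding RNAs named after channel genes. Polyadenylated RNA from small pools of neurons picked under the microscope was amplified and sequenced, with 2 pools in each of 5 groups. The question was how nodose neurons (from the caudal, placode-derived part of the vagal ganglion) differ from jugular neurons (from the rostral, neural crest-derived part) among C-fibers that respond to capsaicin or carry the Trpv1 reporter.

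In the Trpv1-tdTomato selection, neurons came from 2 mice in which Trpv1-Cre switches on a tdTomato reporter from the Rosa26 locus, so red cells express or have at some time expressed Trpv1, the capsaicin receptor. The 3 groups of this selection were nodose Trpv1-tdTomato+ neurons (30 cells a pool), jugular Trpv1-tdTomato+ neurons (30 cells a pool) and nodose Trpv1-tdTomato- neurons (15 cells a pool). In the capsaicin selection, neurons of C57BL/6 mice were picked by their calcium response. Nodose capsaicin neurons (14 and 15 cells) answered both α,β-methylene-ATP (10 µM) and capsaicin (1 µM), and jugular capsaicin neurons (15 and 16 cells) answered capsaicin alone. The ages of the mice and the animal behind each pool are not given in the sources used here, so p-values measure the spread between pools, which may be technical. The selections were processed at different cores from different mice and at different depths, which cannot be told apart from the way cells were chosen, and CPM was set across selections only to say which pools were above which.

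Potassium channels let potassium leave the neuron and so set its resting potential, end each action potential and limit how often it fires. Channels of the Kv1 and Kv7 families work near the firing threshold, Kv2 and Kv3 channels repolarize the spike, and Kv4 channels carry the fast transient A-type current. Kv4 channels in neurons are complexes: the pore subunits (Kcnd genes) bind calcium-sensing KChIP proteins (Kcnip genes) and the single-pass membrane proteins encoded by Dpp6 and Dpp10, which speed their gating and raise their number at the surface.

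Promoters are shown for 2 genes of the Kv4 complex that had higher CPM in jugular pools, Kcnip2 and Dpp10, and for Kcnf1, which had higher CPM in nodose Trpv1-tdTomato+ pools. Each run is the RefSeq promoter on GRCm38.p6, read on the gene's own minus strand 300 bases long and ending 50 bases past the start of the gene. Capitals mark GC boxes (GGGCGG) and CCAAT boxes (CCAAT), found on either strand, none of which overlapped another.
Kcnip2 promoter, chr19:45816014-45816313: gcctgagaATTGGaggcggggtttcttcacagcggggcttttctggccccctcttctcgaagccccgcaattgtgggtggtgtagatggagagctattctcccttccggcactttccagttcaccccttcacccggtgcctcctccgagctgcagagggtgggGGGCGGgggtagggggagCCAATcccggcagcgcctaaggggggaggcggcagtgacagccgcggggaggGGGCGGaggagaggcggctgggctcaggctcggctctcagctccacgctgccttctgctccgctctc
Dpp10 promoter, chr1:124045510-124045809: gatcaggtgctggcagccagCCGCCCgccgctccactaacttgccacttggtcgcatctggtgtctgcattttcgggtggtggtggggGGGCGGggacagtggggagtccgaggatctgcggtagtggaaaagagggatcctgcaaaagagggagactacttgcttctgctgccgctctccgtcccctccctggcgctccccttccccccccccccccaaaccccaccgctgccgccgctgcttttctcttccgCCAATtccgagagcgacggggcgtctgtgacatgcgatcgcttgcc
Kcnf1 promoter, chr12:17176839-17177138: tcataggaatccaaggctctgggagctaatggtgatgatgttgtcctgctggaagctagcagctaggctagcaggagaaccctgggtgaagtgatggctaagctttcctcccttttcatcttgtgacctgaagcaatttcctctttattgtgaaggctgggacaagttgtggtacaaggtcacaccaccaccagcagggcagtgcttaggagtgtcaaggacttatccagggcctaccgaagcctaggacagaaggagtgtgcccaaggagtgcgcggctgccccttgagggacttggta
The Kcnip2 promoter held 2 GC boxes and 2 CCAAT boxes, the Dpp10 promoter held 2 GC boxes and 1 CCAAT box, and neither motif was found in the Kcnf1 window. The G+C content was 67% for Kcnip2, 65% for Dpp10 and 53% for Kcnf1. Among the 83 rows, 60 had a promoter in the RefSeq table (81 promoters in all). A GC box was present in 48.2% of these 81 promoters against 35.7% of all 32851 promoters of that length, and a CCAAT box in 34.6% against 37.4%. Of 3 further motifs searched on both strands, the cyclic AMP response element TGACGTCA (1.79% of all promoters) and the homeodomain core TAATTA (5.29% of all) were in 0 of the 81, and the TATA box TATAAA was in 6.17% against 13.6% of all. These matches describe the letters of the window only.

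Total counts were 148452506 to 167704327 a pool in the Trpv1-tdTomato selection and 17666710 to 30810863 in the capsaicin selection, so 3 counts, taken as the floor, corresponded to 0.0166 to 0.0229 CPM and to 0.124 to 0.140 CPM on the scale used here. Reads carry no molecular identifiers, so counts are of amplified reads and this floor covers counting error only. Of 6 markers of sensory neurons 5 were at 505 CPM or more in all 10 pools, and Rbfox3 was at 6.04 and 0.560 CPM in the nodose capsaicin pools and at 25.6 CPM or more in the other 8. Markers of the ganglion of origin (P2rx2 and Hoxb5 for nodose, Prdm12 and Tac1 for jugular) followed the labels in every pool. Trpv1 was at 0.0497 CPM or less in both nodose Trpv1-tdTomato- pools and at 25.8 CPM or more in the other 8. Jugular Trpv1-tdTomato+ pools were the lowest of these 8 at 25.8 and 37.85 CPM, against 300.3 and 178.1 CPM for nodose Trpv1-tdTomato+. The nodose mean was 7.52-fold higher there (edgeR log2 fold change 2.86, SE 0.641, adjusted p = 0.321). Capsaicin pools overlapped, with 217.7 and 198 CPM for nodose against 235.5 and 75.9 CPM for jugular. The part of Trpv1 level in the channel results was not tested. The summed CPM of 3 genes of large myelinated neurons (Nefh, Piezo2 and P2ry1) was 117 and 256 in nodose Trpv1-tdTomato+, 427 and 592 in jugular Trpv1-tdTomato+, 884 and 766 in nodose Trpv1-tdTomato-, 0.213 and 235 in nodose capsaicin and 158 and 195 in jugular capsaicin pools, with P2ry1 at 0 in all 4 capsaicin pools. Within the Trpv1-tdTomato selection this list ran in the same direction as the channel genes below that had higher CPM in jugular or in Trpv1-tdTomato- pools, and its part in those differences was not tested. Piezo2 alone had 0.0153 and 0.0296 CPM in the nodose and 63.7 and 117 CPM in jugular Trpv1-tdTomato+ pools, 15.4 and 11.7 CPM in nodose Trpv1-tdTomato- pools, and 0.0426 and 0.187 CPM in the nodose and 97.4 and 88.1 CPM in jugular capsaicin pools. Over both selections its log2 fold change was -10.80 (SE 1.78, adjusted p = 0.0297) by edgeR with Benjamini-Hochberg adjustment. This was in the same direction as that of Dpp10, and the part of Piezo2 in the channel results was not tested. Nefh and P2ry1, also of that list, did not pass this test over both selections. Their log2 fold changes were -0.33 (SE 1.245) and -4.88 (SE 3.48, edgeR adjusted p = 0.804). For Nefh the ganglia overlapped in the capsaicin selection, where nodose replicates held 0.170 and 235 CPM against 60.9 and 107 CPM for jugular replicates. The 9 markers of satellite glia and Schwann cells summed to 3813 to 5495 CPM in the Trpv1-tdTomato selection, mostly from Apoe and Fabp7, and to 459 to 849.6 CPM in the capsaicin selection, while Sox10 was at 14.5 CPM or less and Gfap at 0. Of 5 immune cell markers 4 were at 0 in all pools, and Cd68 was at 77.3 CPM in nodose capsaicin replicate 1, 18.9 CPM in jugular capsaicin replicate 1 and 6.93 CPM or less elsewhere. Of 3 fibroblast markers, Dcn was at 253 CPM in jugular capsaicin replicate 1 and at most 39.2 CPM elsewhere, Col3a1 was at 17.2 and 20.5 CPM in nodose Trpv1-tdTomato- pools and at most 0.206 CPM elsewhere, and Col1a1 was at most 0.0535 CPM. Endothelial markers were at 0.0222 CPM or less.

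Of the 83 rows, 70 had a count in at least 1 pool, 47 reached 10 CPM in at least 1 pool and 28 reached 10 CPM in both pools of a group. No count was found in any pool for 13 (Kcna3, Kcna10, Kcne1l, Kcne2, Kcnh5, Kcnj4, Kcnj6, Kcnj8, Kcnj13, Kcnmb3, Kcnmb4os1, Kcnq1 and Kcnv2), and a further 17 stayed under 1 CPM throughout. The latter included Kcnd2, a pore subunit of Kv4 channels, with at most 0.0222 CPM, and Kcnq5, an M-current subunit, with at most 0.0956 CPM. Both pools reached 10 CPM for 11 channel genes in nodose Trpv1-tdTomato+, 19 in jugular Trpv1-tdTomato+, 17 in nodose Trpv1-tdTomato-, 8 in nodose capsaicin and 14 in jugular capsaicin neurons. Only 4 did so in all 5 groups: the Kv β subunit genes Kcnab1 and Kcnab2, the Kv3 pore gene Kcnc4 and the long non-coding RNA Kcnq1ot1. With 10 CPM asked of at least 1 pool of a group, the channel genes numbered 29, 32, 31, 16 and 30 in the same order of groups. All genes at that level numbered 8124, 8449, 8789, 6386 and 7822, so nodose capsaicin pools had the fewest of both. In these bulk pools, fewer cells of a type and less RNA per cell cannot be told apart.

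**Figure D1:**
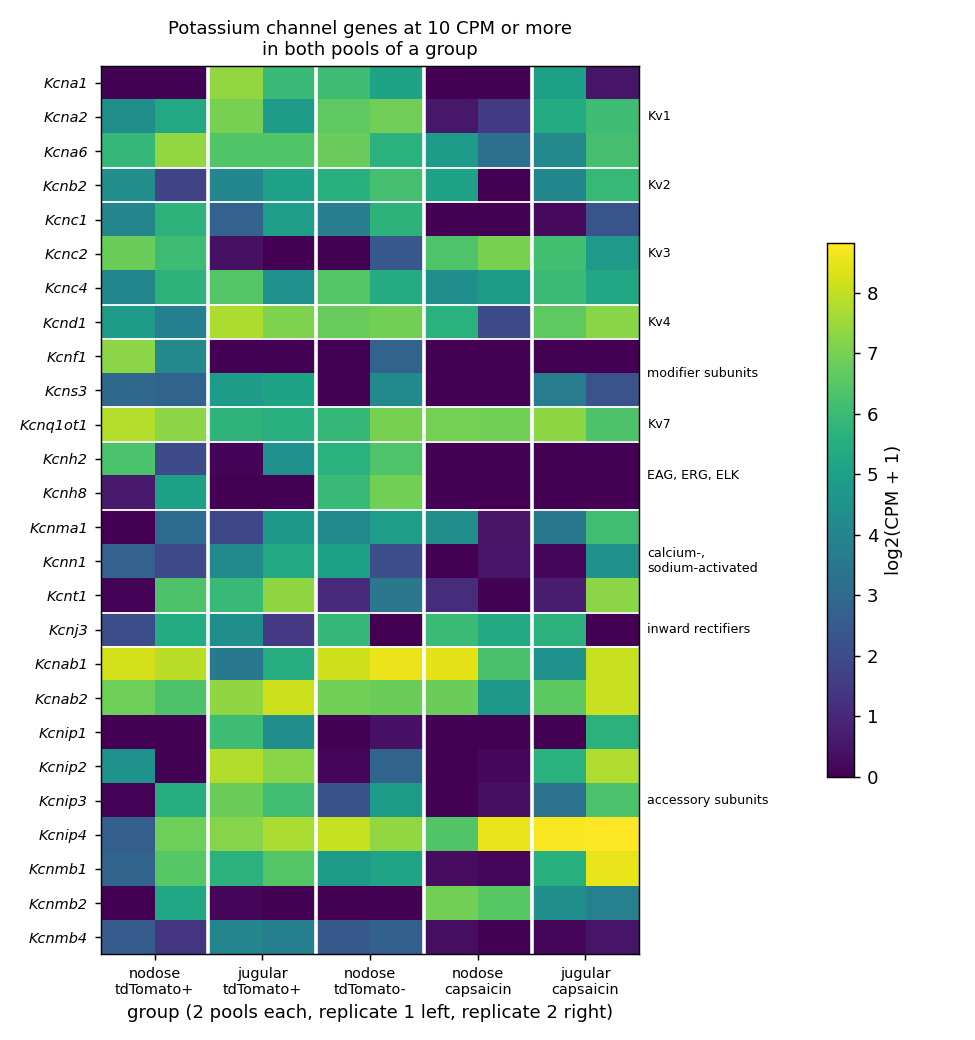
Heat map of log2(CPM + 1) for 26 of the 28 potassium channel genes that reached 10 CPM in both pools of at least 1 group, with genes in rows grouped by family and the 10 pools in columns (replicate 1 left, replicate 2 right). Kcnab1, Kcnab2, Kcnc4 and Kcnq1ot1 were above 10 CPM in all 10 pools, while many other genes were high in 1 pool of a group and dark in the other.

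Summed over all 83 rows, CPM was 1386 and 1647 in nodose Trpv1-tdTomato+, 1916 and 1795 in jugular Trpv1-tdTomato+, 1730 and 1827 in nodose Trpv1-tdTomato-, 1114 and 1027 in nodose capsaicin and 1246 and 2684 in jugular capsaicin pools. In each selection both jugular sums were above both nodose Trpv1-positive or capsaicin sums. Accessory subunits, the family with the most rows (18 of 83), gave the largest sum of the 10 families in all 10 pools. Their sums ran from 529 CPM in a nodose Trpv1-tdTomato+ pool to 1705 CPM in a jugular capsaicin pool.
Levels of different genes were compared per kilobase of exon. On this scale the KChIP gene Kcnip4 had the highest group mean in nodose Trpv1-tdTomato- (59 CPM per kb), nodose capsaicin (61.2) and jugular capsaicin pools (120.0). Kcnip2 came first in jugular Trpv1-tdTomato+ pools at 53.6 CPM per kb, close to Kcnip4 at 48.6, and Kcnab1 came first in nodose Trpv1-tdTomato+ pools at 31.3 CPM per kb. Next in that last group were Kcne3, an accessory subunit gene high in 1 of the pools, at 20.9 CPM per kb and the Kv1 pore gene Kcna6 at 18.6 CPM per kb.

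**Figure D2:**
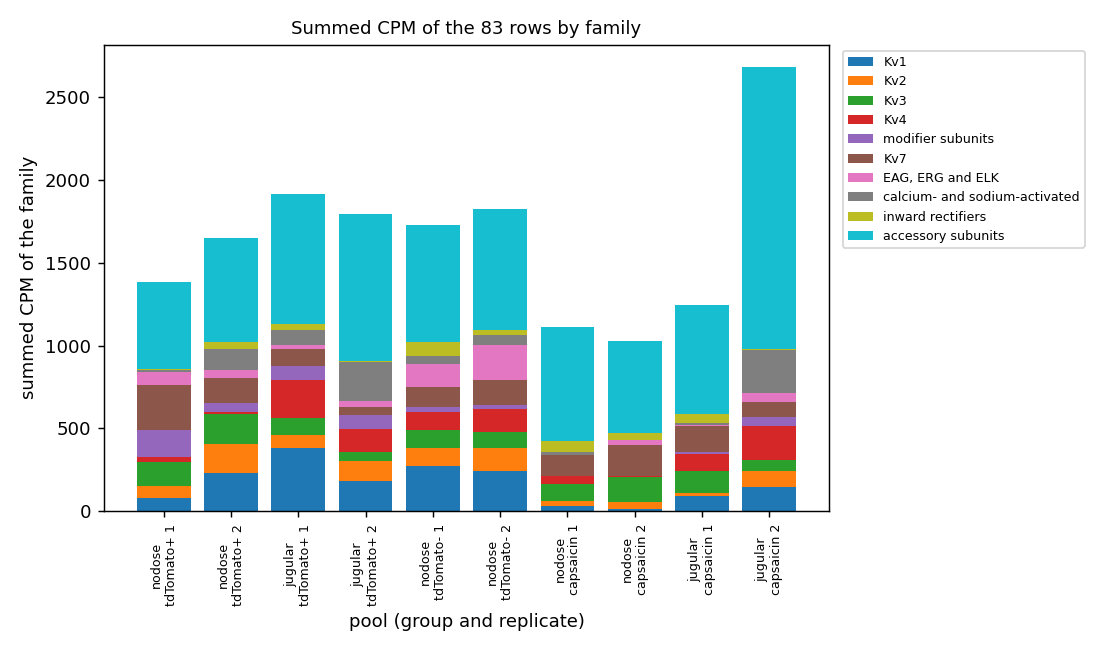
Stacked bars of the summed CPM of the 83 potassium channel rows in each of the 10 pools, coloured by family. Accessory subunits form the largest segment in every pool, and the jugular capsaicin replicate 2 pool has the tallest bar at 2684 CPM. Most of the Kv7 mean in each group is the non-coding RNA Kcnq1ot1. It holds 191.3 of 211.8 CPM in nodose and 49.3 of 76.6 CPM in jugular Trpv1-tdTomato+ pools.

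No potassium channel gene passed the test in any comparison. The test was edgeR's quasi-likelihood test with Benjamini-Hochberg adjustment over all genes tested, and a gene was called where the adjusted p was 0.1 or less, the difference 2-fold or more and both pools of a group at 10 CPM. For nodose over jugular Trpv1-tdTomato+ pools, 0 of 48 channel genes tested were called against 0.318% of all genes, and 13 had an unadjusted p under 0.05 (11.9% of all genes did). DESeq2 with the same thresholds called 4 of 54 (Kcna1, Kcnc2, Kcnf1 and Kcnip1) against 4.22% of all genes. For nodose over jugular capsaicin pools, edgeR called 0 of 25 against 0.0% of all genes. Of these 25, 5 had an unadjusted p under 0.05 (14.1% of all genes did). There DESeq2 called 3 of 37 (Kcna2, Kcnip2 and Kcnmb1) against 6.96% of all genes. For nodose Trpv1-tdTomato+ over Trpv1-tdTomato- pools, edgeR called 0 of 42 against 0.0527% of all genes. Of these 42, 4 had an unadjusted p under 0.05 (11.1% of all genes did). There DESeq2 called Kcna1 alone of 58 against 2.9% of all genes. The comparisons of nodose with jugular Trpv1-tdTomato+ and of nodose Trpv1-tdTomato+ with Trpv1-tdTomato- neurons share the nodose Trpv1-tdTomato+ pools, so their values are given side by side only.

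With 2 pools a side an exact permutation test cannot give a p below 0.33, so differences are also described by whether the groups overlapped. A gene was counted where every pool of one side was above every pool of the other, the means differed at least 2-fold and both pools of a group on the higher side had 10 CPM. Of 22 channel genes at 10 CPM in the Trpv1-tdTomato+ comparison, 10 were lower in nodose than in jugular pools without overlap (45.5%, against 18.2% of all genes at that level) and 4 were higher (18.2%, against 17.4%). Among 15 in the capsaicin comparison, 5 were lower (33.3%, against 24.1%) and 2 higher (13.3%, against 17.4%). Over both selections together, with 4 pools a side, 3 of 25 were lower without overlap (Kcna1, Kcnd1 and Kcnip2, 12% against 4.07%) and 0 were higher (against 2.28%). The median log2 fold change of nodose over jugular was -0.69 for channel genes and 0.03 for all genes in Trpv1-tdTomato+ pools, and -1.54 and -0.02 in capsaicin pools. Leaving out a pool makes the rule easier to meet: 13 were higher in Trpv1-tdTomato+ pools without nodose replicate 1, and 19 were lower in capsaicin pools without jugular replicate 1. These counts and medians are descriptions and were not tested as a set.

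**Figure D3:**
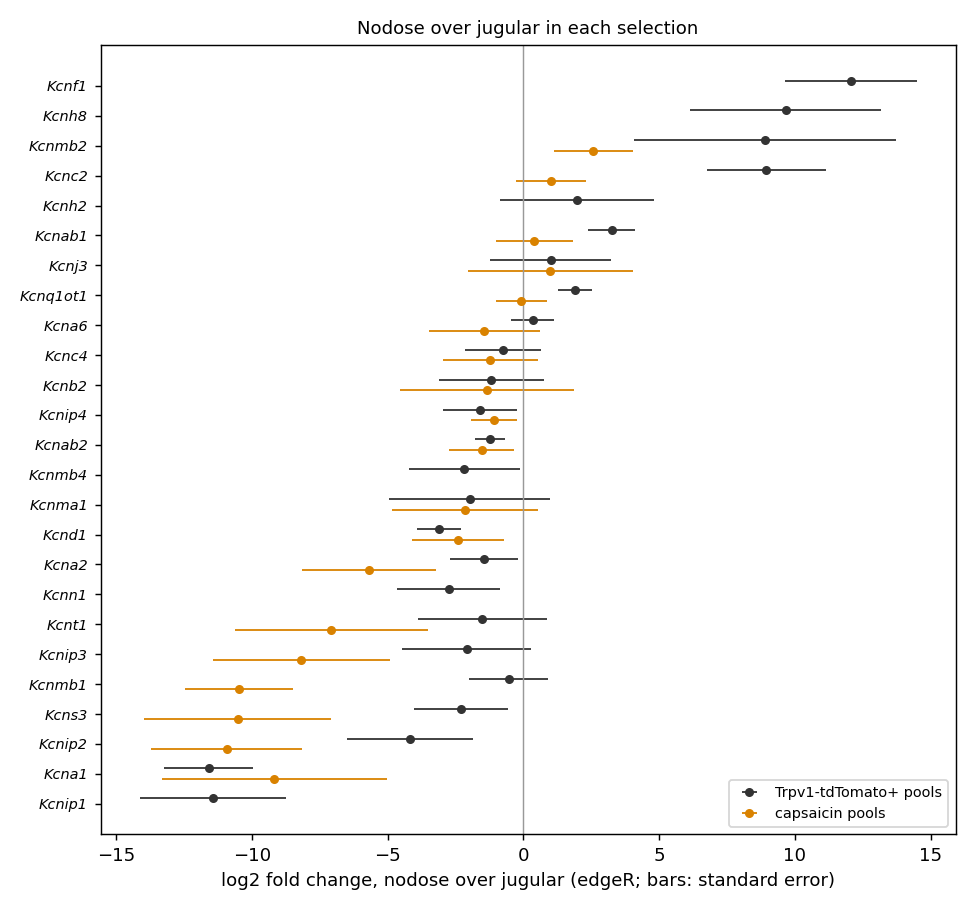
Log2 fold change of nodose over jugular pools with its standard error (edgeR), in Trpv1-tdTomato+ pools (black) and capsaicin pools (orange), for the 25 channel genes described by name, ordered by the fit to both selections. Genes left out of a fit by the filter on low counts have no point. Values for Kcnd1, Kcnip2 and Kcna1 are below 0 in both selections.

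Genes of the Kv4 complex were first compared by order alone, with no minimum fold or CPM. Kcnd1, Kcnip2, Kcnip3, Kcnip4, Dpp6 and Dpp10 had higher CPM in both jugular pools than in both nodose Trpv1-tdTomato+ or capsaicin pools within each selection. Of these only the partner gene Dpp10 passed the test, and only in the fit to both selections (edgeR adjusted p = 0.0173). Within a selection its edgeR adjusted p was 0.3155 in Trpv1-tdTomato+ pools and 0.3521 in capsaicin pools. Kcnip1 followed this order in the Trpv1-tdTomato selection alone, and Kcnd2 and Kcnd3 in neither. Channel genes outside the complex also followed it in both selections, among them Kcna1, Kcnh1, Kcnn2 and Kcns3. The share of all genes in this order was not computed. Of the Kv4 complex genes in this order in both selections, Kcnd1, Kcnip2, Dpp6 and Dpp10 remained in both with the 2-fold and 10 CPM conditions added. Kcnip3 and Kcnip4 remained in the Trpv1-tdTomato selection alone. Of all genes at 10 CPM, 18.2% met that rule in Trpv1-tdTomato+ pools and 24.1% in capsaicin pools. Kcnd1, the only Kv4 pore gene at 10 CPM in both pools of a group, lies at chrX:7822289-7838280, plus strand (GENCODE vM21 on GRCm38, the build of all gene coordinates here). It had 28.4 and 13.1 CPM in the nodose and 210.2 and 136 CPM in jugular Trpv1-tdTomato+ pools, 107 and 122 CPM in nodose Trpv1-tdTomato- pools, and 48.4 and 3.08 CPM in the nodose and 97.1 and 152 CPM in jugular capsaicin pools. All 4 jugular pools were above all 4 nodose Trpv1-tdTomato+ or capsaicin pools. Within their own selection the Trpv1-tdTomato- pools lay below both jugular pools and above both nodose Trpv1-tdTomato+ pools. The mean was 8.34-fold higher in jugular than in nodose Trpv1-tdTomato+ pools (173 ± 52.2 against 20.8 ± 10.8 CPM, SD, n = 2 each, edgeR adjusted p = 0.321) and 4.84-fold higher in the capsaicin pools (edgeR adjusted p = 0.796). In the capsaicin pools a log2 fold change of -2.41 became -5.43 without nodose capsaicin replicate 1 and -1.49 without replicate 2. Kcnd3, another Kv4 pore gene, was irregular, with 49.9 CPM in a jugular capsaicin pool and 0 in the other.

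Kcnip2, a KChIP gene at chr19:45791839-45816061, minus strand, had 21.4 and 0.0445 CPM in the nodose and 220.2 and 152 CPM in jugular Trpv1-tdTomato+ pools, 0.0995 and 6.23 CPM in nodose Trpv1-tdTomato- pools, and 0 and 0.140 CPM in the nodose and 48.4 and 217 CPM in jugular capsaicin pools. Every jugular pool was above every nodose pool of any kind. The nodose Trpv1-tdTomato+ pools differed widely from each other (2803 and 6 reads), which left a log2 fold change of -4.16 (SE 2.33) there, against -10.93 (SE 2.77) in the capsaicin pools. Without nodose Trpv1-tdTomato+ replicate 1 the former was -12.06. Fitted over both selections, the log2 fold change was -7.29 (SE 2.60), with an edgeR adjusted p of 0.352. Without nodose Trpv1-tdTomato+ replicate 1 it was -11.42 and passed the test.

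Kcnip1, a KChIP gene at chr11:33629339-33993152, minus strand, had 0.0229 and 0.00741 CPM (3 and 1 reads) in nodose and 66.4 and 19.4 CPM in jugular Trpv1-tdTomato+ pools, 0 and 0.343 CPM in nodose Trpv1-tdTomato- pools, 0 and 0.0467 CPM in nodose capsaicin pools, and 0 and 49.8 CPM in jugular capsaicin pools. Only jugular pools reached 1 CPM, and of these jugular capsaicin replicate 1 had no read. Its log2 fold change in Trpv1-tdTomato+ pools was -11.44 (SE 2.69), with an unadjusted edgeR p of 0.00743 and an adjusted p of 0.321. Kcnip3, also a KChIP gene and a calcium-binding transcriptional repressor, had 0.0535 and 44.5 CPM in the nodose and 114 and 68.2 CPM in jugular Trpv1-tdTomato+ pools, and 0.0426 and 0.280 CPM against 8.88 and 78.1 CPM in the capsaicin pools. The groups did not overlap in either selection, although jugular capsaicin replicate 1 was under 10 CPM. Kcnip4 had the highest mean CPM of the KChIP genes over all 10 pools, with 5.32 and 116 CPM in the nodose and 146 and 206 CPM in jugular Trpv1-tdTomato+ pools, 263 and 165 CPM in nodose Trpv1-tdTomato- pools, and 84.2 and 359.7 CPM in the nodose and 421 and 449.7 CPM in jugular capsaicin pools. The nodose Trpv1-tdTomato+ or capsaicin pools were below the jugular ones in each selection and the Trpv1-tdTomato- pools overlapped the jugular ones, but the capsaicin means differed by less than 2-fold (222 ± 195 against 435 ± 20.5 CPM, SD, n = 2 each).

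Among 16 partner genes of potassium channels outside the Kcn symbols, 12 were tested over both selections and 1, Dpp10, was called. Dpp10, at chr1:123321471-124045559, minus strand, had 0.0153 and 0.00741 CPM (2 and 1 reads) in nodose and 52.9 and 48.9 CPM in jugular Trpv1-tdTomato+ pools, 4.42 and 22.5 CPM in nodose Trpv1-tdTomato- pools, and 0.0426 and 0.140 CPM in the nodose and 97.6 and 182 CPM in jugular capsaicin pools. All jugular pools were above all nodose pools, the Trpv1-tdTomato- pools included, and the 4 nodose Trpv1-tdTomato+ and capsaicin pools held at most 3 reads each. Over both selections Dpp10 was lower in nodose neurons: the log2 fold change was -11.29 (SE 1.69) with an adjusted p of 0.0173 by edgeR's quasi-likelihood test with Benjamini-Hochberg adjustment, against 0.577% of all genes called in that comparison and 0 of 49 channel genes, of which 11 had an unadjusted p under 0.05 (11.1% of all genes did). Without jugular capsaicin replicate 2 its log2 fold change was -11.26 with an edgeR adjusted p of 0.197 and the call was lost, while without each other pool the edgeR adjusted p was 0.00948 to 0.0844. DESeq2 called 12 of 56 channel genes tested in the same comparison against 8.94% of all genes. These were Kcna1, Kcna2, Kcnc2, Kcnd1, Kcnf1, Kcnip1, Kcnip2, Kcnip3, Kcnmb1, Kcnmb2, Kcnn1 and Kcns3. Dpp6, a relative of Dpp10, had 39.5 and 63.6 CPM in the nodose and 218 and 135 CPM in jugular Trpv1-tdTomato+ pools. In the capsaicin pools it had 8.64 and 150.5 CPM in the nodose and 211 and 207 CPM in jugular. Dpp6 did not overlap between ganglia in either selection but did not pass the test (edgeR adjusted p = 0.556 over both selections). By the no-overlap rule, 6 of the 16 partner genes were lower in nodose capsaicin pools, against 24.1% of all genes at 10 CPM. Of the 16, 10 had 10 CPM in each jugular capsaicin pool. These were Dpp6, Dpp10, Amigo1 (Kv2 partner) and Cntnap2, Lgi1 and Adam22 (Kv1 partners). In Trpv1-tdTomato+ pools only Dpp6 and Dpp10 were lower by that rule, against 18.2%. In each selection 0 partner genes were higher in nodose by that rule, against 17.4%. All these shares are of genes at 10 CPM, while the 16 partners include genes below that level. With the 2-fold condition dropped, the calmodulin gene Calm3 was higher in both nodose Trpv1-tdTomato+ pools (270.1 and 467.7 against 268.2 and 240.5 CPM).

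**Figure D4:**
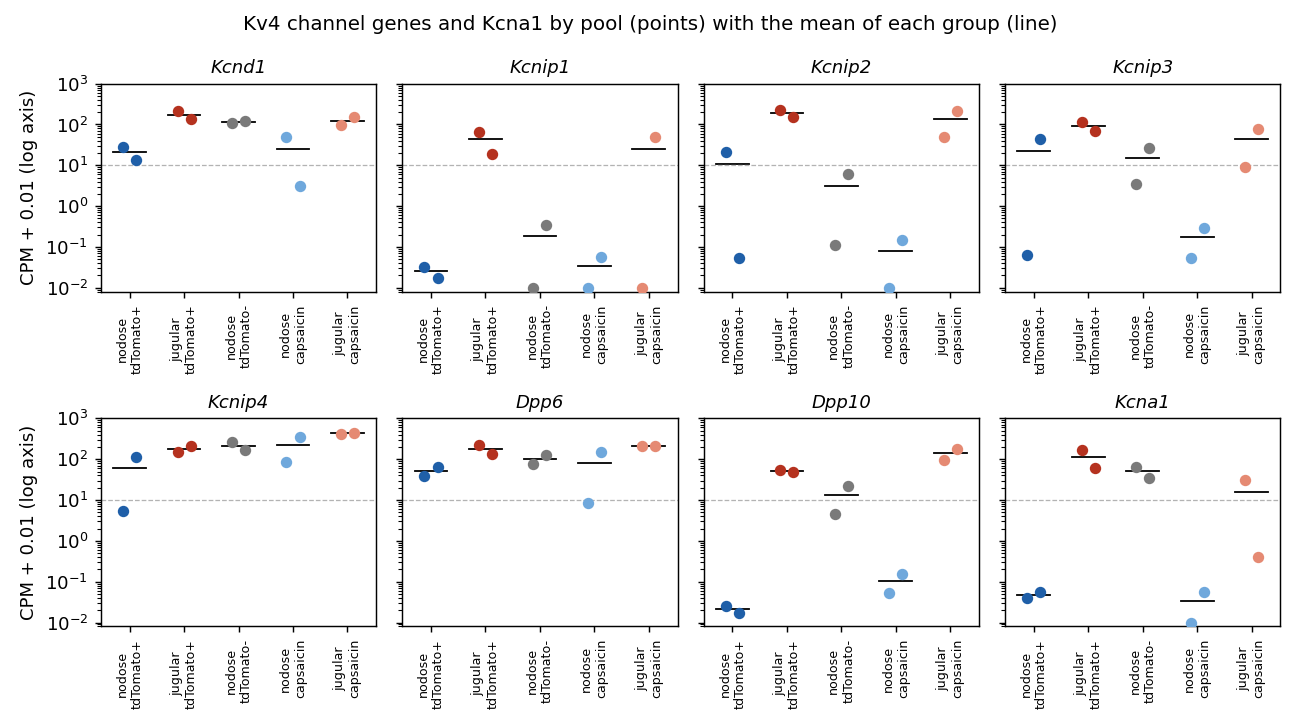
CPM + 0.01 on a log axis for Kcnd1, 4 KChIP genes, Dpp6, Dpp10 and Kcna1 in the 5 groups. Points are pools, the short line is the mean of the 2 pools and the dashed line marks 10 CPM. Both jugular groups lie above the nodose Trpv1-tdTomato+ and capsaicin groups for Kcnd1, Kcnip2 and Dpp10, and the nodose Trpv1-tdTomato- pools lie near the jugular pools for Kcnd1 and Kcna1.

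Within the Kv1 family, Kcna1 showed the smallest adjusted p of any channel gene in Trpv1-tdTomato+ pools. Kcna1, a Kv1 pore gene whose current restrains repetitive firing, lies at chr6:126640397-126646384, minus strand. It had 0.0306 and 0.0445 CPM (4 and 6 reads) in nodose and 167 and 61.7 CPM in jugular Trpv1-tdTomato+ pools, 66.2 and 34 CPM in nodose Trpv1-tdTomato- pools, and 0 and 0.0467 CPM in the nodose and 31.1 and 0.404 CPM in jugular capsaicin pools. The 4 nodose Trpv1-tdTomato+ and capsaicin pools held at most 6 reads each, and all 4 jugular and both Trpv1-tdTomato- pools were above them. Jugular capsaicin replicate 2 was low, with 9 reads. The log2 fold change was -11.59 (SE 1.65, adjusted p = 0.157) for nodose over jugular Trpv1-tdTomato+ pools, -10.61 (SE 2.44, adjusted p = 0.137) over both selections and -10.43 (SE 2.16, adjusted p = 0.366) for nodose Trpv1-tdTomato+ over Trpv1-tdTomato- pools by edgeR's quasi-likelihood test with Benjamini-Hochberg adjustment. The test over the 3 groups of the Trpv1-tdTomato selection called 0 of 51 channel genes against 0.422% of all genes, with 9 at an unadjusted p under 0.05 (11.9% of all genes) and the smallest adjusted p for Kcna1 (0.119). DESeq2 called 6 of 57 in that test against 6.6% of all genes: Kcna1, Kcnab1, Kcnd1, Kcnf1, Kcnh8 and Kcnip1.

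Kcna2, a Kv1 pore gene found along myelinated axons, had 20.1 and 39.2 CPM in the nodose and 127 and 28.4 CPM in jugular Trpv1-tdTomato+ pools, 98.2 and 118 CPM in nodose Trpv1-tdTomato- pools, and 0.468 and 1.82 CPM in the nodose and 41.7 and 66.7 CPM in jugular capsaicin pools. The ganglia overlapped in the Trpv1-tdTomato+ pools and did not in the capsaicin pools, where the means were 1.15 ± 0.957 and 54.2 ± 17.7 CPM (SD, n = 2 each). The log2 fold change there was -5.68 (SE 2.47, adjusted p = 0.4) by edgeR with Benjamini-Hochberg adjustment. Kcna6, also a Kv1 pore gene, had the highest mean of the family over all 10 pools, with 57 and 165 CPM in the nodose and 84.5 and 84.5 CPM in jugular Trpv1-tdTomato+ pools, 110.5 and 48.4 CPM in nodose Trpv1-tdTomato- pools, and 28.2 and 8.40 CPM in the nodose and 16.8 and 72.8 CPM in jugular capsaicin pools. Its groups overlapped in every comparison. Kcna4, which encodes a fast-inactivating Kv1 pore, exceeded 10 CPM only in nodose Trpv1-tdTomato- replicate 2 (44 CPM, against 0.0442 in the other pool).

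The β subunits that bind Kv1 channels, Kcnab1 and Kcnab2, were at 10 CPM or more in all 10 pools. Kcnab1, at chr3:65109384-65378223, plus strand, had 300.2 and 238 CPM in the nodose and 10.7 and 44.1 CPM in jugular Trpv1-tdTomato+ pools, 289.5 and 378 CPM in nodose Trpv1-tdTomato- pools, and 352 and 77.7 CPM in the nodose and 21.6 and 268 CPM in jugular capsaicin pools. In the Trpv1-tdTomato selection all 4 nodose pools were above both jugular pools, and the nodose Trpv1-tdTomato+ mean was 9.81-fold higher (269 ± 44 against 27.4 ± 23.6 CPM, SD, n = 2 each, edgeR adjusted p = 0.321). The capsaicin pools of both ganglia overlapped and spread more than 4-fold within each group. Kcnab2 had 116 and 80.5 CPM in the nodose and 162 and 281 CPM in jugular Trpv1-tdTomato+ pools, 121 and 114 CPM in nodose Trpv1-tdTomato- pools, and 113 and 25.3 CPM in the nodose and 95.2 and 268 CPM in jugular capsaicin pools. Here the jugular Trpv1-tdTomato+ pools were the higher, by 2.25-fold in the mean over nodose (edgeR adjusted p = 0.514), and the capsaicin pools overlapped.

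Genes of the spike-repolarizing Kv2 and Kv3 channels were detected in all 5 groups. Kcnb2, a Kv2 pore gene, had 19.3 and 2.54 CPM in the nodose and 16.1 and 31.8 CPM in jugular Trpv1-tdTomato+ pools, 47.8 and 71.9 CPM in nodose Trpv1-tdTomato- pools, and 32.7 and 0 CPM in the nodose and 15.9 and 58.3 CPM in jugular capsaicin pools. Both Trpv1-tdTomato- pools were above both nodose Trpv1-tdTomato+ pools, with a log2 fold change of -2.54 (SE 1.55, adjusted p = 0.715) for positive over negative by edgeR with Benjamini-Hochberg adjustment, and -4.63 without nodose Trpv1-tdTomato+ replicate 1.

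Kcnc2, a Kv3 pore gene of fast-spiking neurons at chr10:112271121-112467024, plus strand, had 113 and 66.2 CPM in the nodose and 0.323 and 0.0237 CPM (52 and 4 reads) in jugular Trpv1-tdTomato+ pools, 0 and 4.22 CPM in nodose Trpv1-tdTomato- pools, and 82 and 126 CPM in the nodose and 70.2 and 26.2 CPM in jugular capsaicin pools. The nodose Trpv1-tdTomato+ pools were above the other 4 pools of their selection, and the nodose capsaicin pools were above the jugular ones with a much smaller gap. The log2 fold change of nodose over jugular was 8.95 (SE 2.20, adjusted p = 0.321) in Trpv1-tdTomato+ pools and 1.02 (SE 1.28, adjusted p = 1) in capsaicin pools by edgeR with Benjamini-Hochberg adjustment. Leaving out 1 capsaicin pool at a time gave 0.50 (without jugular replicate 2) to 1.87 (without jugular replicate 1) for the latter. The difference between the selections itself, tested as an interaction, was -7.93 (SE 2.52, adjusted p = 0.478) by edgeR for capsaicin relative to Trpv1-tdTomato+, and did not pass. That interaction test called 0 of 49 channel genes against 0.0% of all genes. Of these 49, 2 had an unadjusted p under 0.05 (Kcnc2 and Kcnmb1, against 10.3% of all genes). For the interaction DESeq2 called 5 of 53 (Kcnc1, Kcnc2, Kcnf1, Kcnmb1 and Kcns3) against 9.04% of all genes. Kcnc4, a Kv3 pore gene with fast inactivation, ranged from 15.7 CPM (nodose Trpv1-tdTomato+ replicate 1) to 87.6 CPM (jugular Trpv1-tdTomato+ replicate 1), and only its capsaicin pools did not overlap, with 20.2 and 26.8 CPM in the nodose and 64 and 37.5 CPM in jugular. Kcnc1, a further Kv3 gene, had 5.81 to 51.1 CPM in the 6 pools of the Trpv1-tdTomato selection and 0 in both nodose capsaicin pools.

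Modifier subunits are silent by themselves and join Kv2 pores. Kcnf1, at chr12:17172100-17176888, minus strand, had 154 and 16.6 CPM in the nodose and 0.0249 and 0.0119 CPM (4 and 2 reads) in jugular Trpv1-tdTomato+ pools, 0.0166 and 6.03 CPM in nodose Trpv1-tdTomato- pools, and no read in any of the 4 capsaicin pools. Both nodose Trpv1-tdTomato+ pools were above the other 8, although they differed more than 9-fold from each other. The log2 fold change of nodose over jugular Trpv1-tdTomato+ pools was 12.07 (SE 2.42, adjusted p = 0.315) by edgeR with Benjamini-Hochberg adjustment. Kcns3 had 6.74 and 6.17 CPM in the nodose and 27.6 and 33.9 CPM in jugular Trpv1-tdTomato+ pools, 0 and 17.8 CPM in nodose Trpv1-tdTomato- pools, 0 in both nodose capsaicin pools and 11.9 and 3.72 CPM in jugular capsaicin pools. The jugular pools were above the nodose Trpv1-tdTomato+ or capsaicin pools in each selection, but neither comparison passed the test (edgeR adjusted p = 0.785 and 0.352). The remaining 8 modifier genes reached 10 CPM in both pools of no group.

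**Figure D5:**
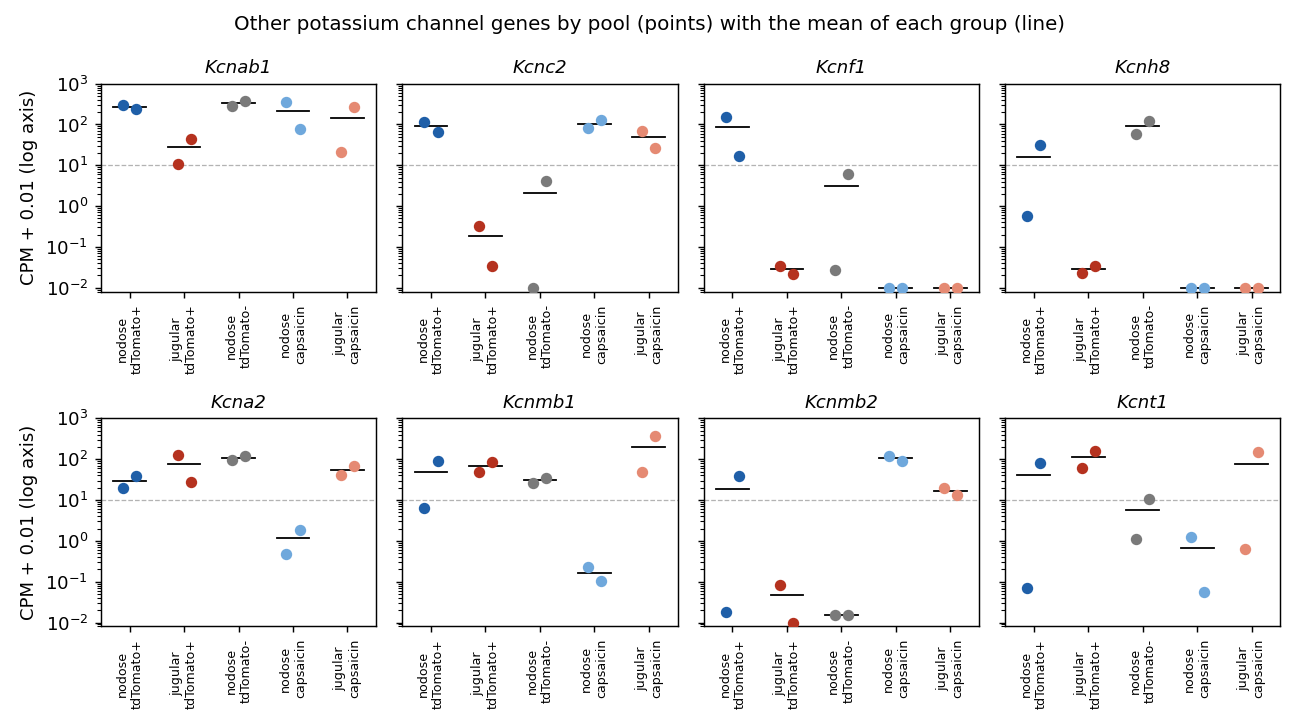
CPM + 0.01 on a log axis for Kcnab1, Kcnc2, Kcnf1, Kcnh8, Kcna2, Kcnmb1, Kcnmb2 and Kcnt1 in the 5 groups. Points are pools, the short line is the mean of the 2 pools and the dashed line marks 10 CPM. Nodose Trpv1-tdTomato+ pools are above jugular ones for Kcnab1, Kcnc2 and Kcnf1, nodose capsaicin pools are low for Kcna2 and Kcnmb1, and all capsaicin pools are at 0 for Kcnf1 and Kcnh8.

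Kv7 channels carry the M-current that acetylcholine and bradykinin suppress. Kcnq3, an M-current subunit gene, was at or under 14.2 CPM in all pools. Kcnq1ot1, the imprinted non-coding RNA transcribed antisense through Kcnq1 at chr7:143203458-143296549, minus strand, had 229 and 153 CPM in the nodose and 52 and 46.6 CPM in jugular Trpv1-tdTomato+ pools, 57.1 and 127 CPM in nodose Trpv1-tdTomato- pools, and 125 and 121 CPM in the nodose and 159 and 80.4 CPM in jugular capsaicin pools. Nodose Trpv1-tdTomato+ pools were above both other groups of their selection, with a mean 3.88-fold that of jugular (edgeR adjusted p = 0.335), and the capsaicin pools overlapped. Strand was not stated for the counting, so reads of Kcnq1ot1 and of Kcnq1 (listed at 0), or of Kcnmb4 and its antisense RNAs, cannot be told apart where their exons overlap. Exons of 9 of the 25 genes described by name overlap another gene model in this annotation.

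In the EAG, ERG and ELK family, Kcnh2 (the ERG channel also known from the heart) and Kcnh8 (an ELK channel) were counted in the Trpv1-tdTomato selection and had no read in the 4 capsaicin pools. Kcnh8, at chr17:52602709-52979194, plus strand, had 0.558 and 31.3 CPM in the nodose and 0.0124 and 0.0237 CPM (2 and 4 reads) in jugular Trpv1-tdTomato+ pools and 59.9 and 121 CPM in nodose Trpv1-tdTomato- pools. Both Trpv1-tdTomato- pools were the highest, and every nodose pool of this selection was above both jugular pools. The log2 fold change was 9.67 (SE 3.52, adjusted p = 0.382) for nodose over jugular Trpv1-tdTomato+ and -2.59 (SE 1.86, adjusted p = 0.779) for Trpv1-tdTomato+ over Trpv1-tdTomato- pools by edgeR with Benjamini-Hochberg adjustment. The latter was -1.60 without nodose Trpv1-tdTomato+ replicate 1 and -7.40 without replicate 2. Kcnh2 had 79 and 3.04 CPM in the nodose and 0.0498 and 20.2 CPM in jugular Trpv1-tdTomato+ pools and 48.9 and 82.3 CPM in nodose Trpv1-tdTomato- pools, with overlap in both comparisons. Kcnh1 (EAG) shared the smallest adjusted p of the capsaicin comparison with Kcnip2, Kcnmb1, Kcnn2 and Kcns3 (edgeR, 0.352), with no read in either nodose pool and 4.94 and 42.2 CPM in the jugular pools.

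Channels gated by calcium or sodium were uneven between pools of one group. Kcnma1, the pore of the BK channel, had 0.0153 and 7.38 CPM in the nodose and 2.80 and 25.3 CPM in jugular Trpv1-tdTomato+ pools, 17 and 28.8 CPM in nodose Trpv1-tdTomato- pools, and 19.7 and 0.373 CPM in the nodose and 10.8 and 68.7 CPM in jugular capsaicin pools. Only the comparison of nodose Trpv1-tdTomato+ with Trpv1-tdTomato- pools was without overlap, with the Trpv1-tdTomato- pools higher (edgeR adjusted p = 0.889). Kcnt1, the sodium-activated channel Slack, had 0.0612 and 81.1 CPM in the nodose and 60.5 and 163 CPM in jugular Trpv1-tdTomato+ pools, 1.12 and 10.3 CPM in nodose Trpv1-tdTomato- pools, and 1.23 and 0.0467 CPM in the nodose and 0.622 and 154 CPM in jugular capsaicin pools. Its pools of one group differed by more than 100-fold in both nodose Trpv1-tdTomato+ and jugular capsaicin neurons. Kcnn1, an SK channel of the after-hyperpolarization, had 5.91 and 2.89 CPM in the nodose and 17.7 and 39.5 CPM in jugular Trpv1-tdTomato+ pools, 30.5 and 3.37 CPM in nodose Trpv1-tdTomato- pools, and 0 and 0.420 CPM in the nodose and 0.0830 and 21.8 CPM in jugular capsaicin pools. The jugular Trpv1-tdTomato+ pools were above the nodose ones by 6.49-fold in the mean, without passing the test (edgeR adjusted p = 0.746).

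The BK β subunits shape the calcium sensitivity and inactivation of BK channels. In the capsaicin pools Kcnmb1 had lower and Kcnmb2 higher CPM in nodose than in jugular neurons without overlap, and neither passed the test. Kcnmb1, at chr11:33963013-33973641, plus strand, had 6.25 and 90.6 CPM in the nodose and 49.7 and 86.8 CPM in jugular Trpv1-tdTomato+ pools, 26.6 and 34.3 CPM in nodose Trpv1-tdTomato- pools, and 0.213 and 0.0934 CPM (5 and 2 reads) in nodose and 47.5 and 361 CPM in jugular capsaicin pools. The capsaicin pools of the ganglia did not overlap, and the Trpv1-tdTomato+ pools did. The log2 fold change of nodose over jugular was -10.48 (SE 1.98, adjusted p = 0.352) in capsaicin pools and -0.54 (SE 1.45, adjusted p = 0.969) in Trpv1-tdTomato+ pools by edgeR with Benjamini-Hochberg adjustment, and the interaction had an unadjusted p of 0.0034 and an adjusted p of 0.478. Without jugular capsaicin replicate 1 the capsaicin value was -11.28 and passed the test. Kcnmb1 lies within Kcnip1 on the opposite strand, with no exon in common in this annotation.

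Kcnmb2, the inactivating BK β subunit gene at chr3:31902507-32200180, plus strand, had 0.00764 and 37.7 CPM in the nodose and 0.0746 and 0 CPM in jugular Trpv1-tdTomato+ pools, 0.00553 and 0.00562 CPM in nodose Trpv1-tdTomato- pools, and 122 and 91.1 CPM in the nodose and 19.8 and 13.2 CPM in jugular capsaicin pools. All 4 capsaicin pools were above 10 CPM with the nodose pools higher (106 ± 21.6 against 16.5 ± 4.63 CPM, SD, n = 2 each, edgeR adjusted p = 0.618), whereas 5 of the 6 pools of the Trpv1-tdTomato selection were under 0.1 CPM. Kcnmb4, the neuronal BK β subunit gene, had 4.85 and 1.65 CPM in the nodose and 15.2 and 13 CPM in jugular Trpv1-tdTomato+ pools and 4.49 and 5.49 CPM in nodose Trpv1-tdTomato- pools, and at most 0.404 CPM in the capsaicin pools. The jugular Trpv1-tdTomato+ pools were the highest, 4.34-fold above nodose in the mean (edgeR adjusted p = 0.848).

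Of the 15 inward rectifier genes, which pass current best near rest, 4 had no count and only Kcnj3 reached 10 CPM in both pools of a group. Kcnj3, a subunit of channels opened by G protein βγ, had 3.38 and 42.4 CPM in the nodose and 20.2 and 1.77 CPM in jugular Trpv1-tdTomato+ pools, 57.9 and 0.0225 CPM in nodose Trpv1-tdTomato- pools, and 63.3 and 40.8 CPM in the nodose and 49.6 and 0 CPM in jugular capsaicin pools. Its groups overlapped in every comparison. Kcnj10, an inward rectifier best known from glia, exceeded 2 CPM in a single pool, nodose Trpv1-tdTomato- replicate 1 (18.8 CPM), which was also the pool with the highest Sox10. Kcnj9 had 30.2 CPM in nodose Trpv1-tdTomato- replicate 2 and at most 0.503 CPM elsewhere.

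For nodose Trpv1-tdTomato+ against Trpv1-tdTomato- pools, the comparison within the nodose ganglion, 19 channel genes reached 10 CPM in both pools of a group. Of these, 7 were lower in Trpv1-tdTomato+ pools without overlap (Kcna1, Kcna2, Kcnb2, Kcnd1, Kcnh8, Kcnip4 and Kcnma1, 36.8% against 17.1% of all genes) and 3 were higher (Kcnc2, Kcnf1 and Kcnq1ot1, 15.8% against 17.4%). The median log2 fold change was -0.73 for channel genes and 0.01 for all genes. Kcnd1 was 5.49-fold and Kcna2 3.65-fold higher in the mean of Trpv1-tdTomato- pools, with edgeR adjusted p of 0.402 and 0.516. Pools of Trpv1-tdTomato- neurons held 15 cells and those of Trpv1-tdTomato+ neurons 30, and the effect of pool size was not tested.

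Pools of the same group often disagreed for channel genes. Of the channel genes that reached 10 CPM in at least 1 pool of a group, 11 of 29 in nodose Trpv1-tdTomato+, 7 of 32 in jugular Trpv1-tdTomato+, 10 of 31 in nodose Trpv1-tdTomato-, 5 of 16 in nodose capsaicin and 12 of 30 in jugular capsaicin neurons were under 1 CPM in the other pool. Over all genes this share was 23.5%, 18.9%, 15.8%, 44.6% and 27.6% in the same order. Kcne3 (an accessory subunit gene), with 74.3 and 0.0222 CPM in nodose Trpv1-tdTomato+ pools, and Kcnv1, with 0.0124 and 50.6 CPM in jugular Trpv1-tdTomato+ pools, were examples.

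The genes whose log2 CPM ran most like that of the 3 channel genes with the smallest p over both selections were listed as a description over the 10 pools and 7979 genes, which share depth and selection. For Kcna1 these were Pcnxl2 (r = 0.98), Abca3 (r = 0.97) and Sv2b (r = 0.97). For Kcnip1 they were Plxnd1 (r = 0.99), Fpgs (r = 0.99) and Ptgdr (r = 0.99). For Kcnn2, an SK channel gene with 6.43 and 0.611 CPM in jugular Trpv1-tdTomato+ pools, 1.45 and 2.02 CPM in jugular capsaicin pools and no read in the 6 nodose pools, they were Dtwd1 (r = 0.94), Hars2 (r = 0.93) and Chaf1b (r = 0.93).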

How the data were processed

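The authors aligned 50 bp read pairs to mm10 with TopHat2 (2.0.9) and Bowtie2 (2.1.0.0) and deposited raw HTSeq counts per gene for each pool. The gene annotation and strand setting are not given in the sources used here. From these deposited counts, CPM was computed with DESeq2 size factors within each selection, scaled to the geometric mean total. Of the rows, 27 carried symbols altered by a spreadsheet and none of these is a channel gene.

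Groups came from the sample titles. Comparisons used edgeR (4.0.16, R 4.3.3) with TMM, filterByExpr and the quasi-likelihood test over all genes, with Benjamini-Hochberg adjustment, and DESeq2 (1.42.0) as an alternative. The fits were tested on simulated data. Genes were named if their groups did not overlap in a comparison, if they led their family by mean CPM or if all pools reached 10 CPM. Genes outside that rule (Kcna4, Kcnc1, Kcnd2, Kcnd3, Kcne3, Kcnh1, Kcnj9, Kcnj10, Kcnn2, Kcnq3, Kcnq5 and Kcnv1) and the promoters shown were chosen after their values were seen. The members and lists were chosen with earlier results of these data known. Exon lengths and coordinates came from GENCODE vM21. Alternatives were size factors, no filter on low counts, the replicate block, 1 fit to all pools, leaving out Rn45s and leaving out each pool. Some members are counted in totals and are not reported by name here.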

Additional observations from a re-analysis of the deposited data

How the results depend on the processing

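The count of potassium channel genes called, 0 in all 6 fits, was the same with DESeq2 size factors in edgeR, without the ribosomal row Rn45s, at an adjusted p of at most 0.05 and with the replicate number as a block. With no filter on low counts it was 1 (nodose over jugular, Trpv1-tdTomato+), 2 (capsaicin), 2 (both selections), 1 (interaction) and 2 (the 3 groups of the Trpv1-tdTomato selection), and with 1 fit to all 10 pools it was 1 in the capsaicin comparison. DESeq2 called 4, 3, 1, 12, 5 and 6 in Trpv1-tdTomato+, capsaicin, Trpv1-tdTomato+ over Trpv1-tdTomato-, both selections, interaction and 3 groups. Leaving out 1 pool at a time gave 0 to 1 in the capsaicin comparison (Kcnmb1, without jugular capsaicin replicate 1), 0 to 1 over both selections (Kcnip2, without nodose Trpv1-tdTomato+ replicate 1) and 0 to 0 in the others. The cause of the differences between tools was not tested.

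Counts without overlap ranged, leaving out each pool, from 4 to 13 (higher) and 10 to 16 (lower) in Trpv1-tdTomato+, 2 to 5 and 6 to 19 in capsaicin, 3 to 13 and 8 to 14 in Trpv1-tdTomato+ over Trpv1-tdTomato-, and 0 to 2 and 3 to 9 over both selections. A group reduced to 1 pool meets that rule more easily by construction. The largest moves were 13 without nodose Trpv1-tdTomato+ replicate 1 (higher, in both comparisons that use it), 16 without jugular Trpv1-tdTomato+ replicate 2, 14 without nodose Trpv1-tdTomato- replicate 2, and 19 and 9 without jugular capsaicin replicate 1. Moves past 1.5 times also came without nodose Trpv1-tdTomato+ replicate 2 (5 higher against Trpv1-tdTomato-, 6 lower over both selections), nodose Trpv1-tdTomato- replicate 1 (13 lower), jugular Trpv1-tdTomato+ replicate 2 (6 lower over both selections) and nodose capsaicin replicates 1 (5 higher, 8 lower) and 2 (4 higher). CPM from TMM library sizes gave 2 instead of 3 (higher, Trpv1-tdTomato+ over Trpv1-tdTomato-) and 6 instead of 5 (lower, capsaicin), and a 5 CPM minimum also gave 6 in the latter.

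Over all genes, edgeR called 35, 0, 6, 69, 0 and 52 in the 6 fits above, DESeq2 561, 748, 410, 1232, 1190 and 924, and edgeR with no filter 59, 122, 10, 222, 96 and 125. Replicate numbers did not pair the pools: deviations of same-numbered pools correlated at r = -0.01 to 0.01 over 5154 to 6850 genes. With the replicate block, 13, 20, 1, 52, 0 and 16 genes were called and 0 channel genes in every fit. Directions were followed for Dpp10 and the channel genes whose groups did not overlap, in 35 gene and comparison pairs, and 0 were reversed under the alternatives run. Leaving out 1 pool moved 25 of their 156 log2 fold changes by over 1.5 times. The Dpp10 call was lost only without jugular capsaicin replicate 2 (edgeR adjusted p = 0.197), and its edgeR adjusted p was 0.0496 with the replicate block. A lone pool in a fit without its partner is assumed to vary like the other groups, and at the capsaicin depth a value under 0.124 to 0.140 CPM could not be told from 0.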
